A study of Mus musculus with 18 samples.

Results

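The genes described here are 33 genes that carry the engulfment signal from the cell surface to a maturing phagosome, measured by bulk RNA sequencing of mouse retinal pigment epithelium (RPE), the pigmented layer that takes up shed photoreceptor outer segments. They were chosen by name as kinases, small GTPases and their regulators, engulfment adaptors, actin genes, LC3-associated phagocytosis genes and phagosome Rabs. All 33 were found once in each of the 2 deposited tables, among 55333 named genes of the first table and 55386 of the second, and all 33 passed the filter on low values. The first table holds 12 libraries: 6 of C57BL/6 wild-type mice, 3 labelled Tyro3-/-V1 and 3 labelled Mertk-/-V2Tyro3-/-V2. The second holds 6 libraries: 3 of WT129 wild-type mice and 3 labelled Itgb5-/-. Mice were at postnatal day 25, the tissue was taken 1 h after light onset and used directly without treatment, and the labels name each library a biological replicate. V1 and V2 name versions of the mutant alleles, which the labels describe no further. Tyro3 and Mertk are receptor tyrosine kinases that sense bridging ligands on membranes exposing phosphatidylserine, and Itgb5 is the beta subunit of an integrin that binds outer segments.

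In the RPE, outer segment tips are bound by the integrin and taken up after Mertk signals. Src-family kinases and the Crk, Dock1 and Elmo adaptors couple receptors to the GTPase Rac1, which drives actin into a cup around the particle. The internalised phagosome then acquires phosphoinositides, Rab5 and Rab7, and in LC3-associated phagocytosis its membrane is tagged with LC3 by the autophagy conjugation machinery before it fuses with lysosomes. A burst of this uptake follows light onset each morning.

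With limma, the main test, the kinase Src was the only one of the 33 genes that passed in any comparison, and it was lower in the Mertk-/-V2Tyro3-/-V2 libraries than in C57BL/6. Its start region is printed with those of its relatives Yes1 and Fyn, whose estimates lay above 0, and with that of the actin regulator Wipf2, the only further pathway gene called by limma. Promoter windows were found in the RefSeq table (GRCm38.p6) for 27 of the 33 genes, not for Becn1, Megf10, Actb, Map1lc3a, Pik3c3 and Rac1. Each line gives the 250 bases before the gene start in that table, 5′ to 3′ on the plus strand: chr2:157424043-157424292 for Src, chr5:32610921-32611170 for Yes1, chr10:39369549-39369798 for Fyn and chr11:98863348-98863597 for Wipf2. Capitals mark matches to GGGCGG (GC box), CACGTG (E-box), CATGTG (M-box) or TAATCC (OTX-type site), each searched on both strands. GENCODE M21 places the starts of Src and Fyn further upstream, so these 2 windows lie inside its gene bounds.
Src: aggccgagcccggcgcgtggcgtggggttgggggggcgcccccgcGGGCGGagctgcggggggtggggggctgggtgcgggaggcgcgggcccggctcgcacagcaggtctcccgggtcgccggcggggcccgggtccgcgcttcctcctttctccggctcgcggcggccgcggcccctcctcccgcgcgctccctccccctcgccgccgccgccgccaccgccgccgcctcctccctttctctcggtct
Yes1: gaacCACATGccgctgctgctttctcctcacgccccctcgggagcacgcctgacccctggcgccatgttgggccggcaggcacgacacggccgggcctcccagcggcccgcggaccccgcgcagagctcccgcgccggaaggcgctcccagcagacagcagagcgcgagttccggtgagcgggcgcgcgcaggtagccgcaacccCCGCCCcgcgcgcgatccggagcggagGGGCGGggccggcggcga
Fyn: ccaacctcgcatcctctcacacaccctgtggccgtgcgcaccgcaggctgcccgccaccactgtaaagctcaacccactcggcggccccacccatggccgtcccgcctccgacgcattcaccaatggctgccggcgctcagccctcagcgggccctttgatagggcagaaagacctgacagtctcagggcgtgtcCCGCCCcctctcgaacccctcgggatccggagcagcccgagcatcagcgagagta
Wipf2: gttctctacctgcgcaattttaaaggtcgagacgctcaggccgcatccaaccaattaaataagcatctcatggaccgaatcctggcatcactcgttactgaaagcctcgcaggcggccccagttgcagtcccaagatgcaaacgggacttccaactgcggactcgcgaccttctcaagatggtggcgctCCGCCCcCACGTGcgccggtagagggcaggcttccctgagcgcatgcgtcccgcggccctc

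Each of these windows holds at least 1 GC box, a motif present in 32.7% of 32851 RefSeq promoter windows of the same length. The Src window has 1 GC box and no other searched motif, and 82.8% of its bases are G or C, against a median of 52.4% over all windows. The Yes1 window has 2 GC boxes and 1 M-box match, and its GC content is 77.2%. The Fyn window has 1 GC box with a GC content of 67.2%, and the Wipf2 window has 1 GC box and 1 CACGTG with a GC content of 59.6%. CACGTG occurs in 6.02% of all windows, CATGTG in 12.3% and TAATCC in 6.25%; none of the marked matches overlap. The matches describe letters in these windows and show nothing of binding.

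Libraries held 14135502 to 30401422 recovered reads, and the lowest count of any of the 33 genes in a library was 55 reads. Tyro3 was measured at 3398 ± 514 normalized counts in C57BL/6 (SD, n = 6), 1292 ± 122 in Tyro3-/-V1 (SD, n = 3) and 1705 ± 244 in Mertk-/-V2Tyro3-/-V2 (SD, n = 3). Itgb5 was at 1199 ± 57.8 in Itgb5-/- and 3622 ± 589 in WT129 (SD, n = 3 each). Mertk was not reduced where the label is Mertk-/-V2Tyro3-/-V2 (3409 ± 631, with 3202 ± 454 in C57BL/6), and a count over the whole gene does not check an allele that leaves transcript behind. The names of C57BL/6 replicates 4 to 6 lack a mark, 23, that all other libraries of the first table carry, so the mark was a term of the model and each fold change against C57BL/6 rests on C57BL/6 replicates 1 to 3. All 13 RPE markers were detected in every group, with summed levels of 412342 to 1002234 normalized counts. No listed marker of 6 other cell types was at 0 throughout a group either: rods (12 markers), inner retinal neurons, ocular surface epithelium, microglia and macrophages, endothelium, and fibroblasts and mural cells. The 2 libraries at opposite ends of the ocular surface sum were C57BL/6 replicate 1, with 365469 normalized counts over 12 markers, and Mertk-/-V2Tyro3-/-V2 replicate 3, with 51216. In bulk tissue, fewer cells of a type and less RNA per cell cannot be told apart.

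Per kilobase of merged exons, the 33 genes spanned the range from Actb to Megf10 in C57BL/6 RPE. The actins led, with Actb at 14926 normalized counts per kb (range 10278 to 20286, n = 6) and Actg1 at 8714 per kb (5861 to 12025). Anxa2, a membrane-binding annexin linked to cortical actin, followed at 6365 per kb but ranged from 2497 to 11104. Cdc42, Arpc2, Rab7 and Map1lc3a lay next, at means of 3533, 3011, 2920 and 2800 per kb, and their ranges overlapped, so their order is not resolved. At the low end were Vav3 at 66.1 per kb (36.1 to 93.2), Elmo1 at 31.1 per kb (15.7 to 55.6) and Megf10 at 16.9 per kb (6.65 to 30.6). Within C57BL/6 the steadiest genes were Elmo2 and Pik3c3, with coefficients of variation of 3.81% and 3.85% over the 6 libraries, and the most variable were Megf10 (51.4%), Elmo1 (50.7%) and Anxa2 (48.6%). Counts of Actg1 carry the most doubt about read assignment, since 37.4% of the 50-base stretches in its annotated transcripts also occur in transcripts of another gene. That share was 11.2% for Rab7, 9.12% for Actb, 7.25% for Cfl1 and 5.77% for Map1lc3b, and at most 3.75% for the other members.

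**Figure D1:**
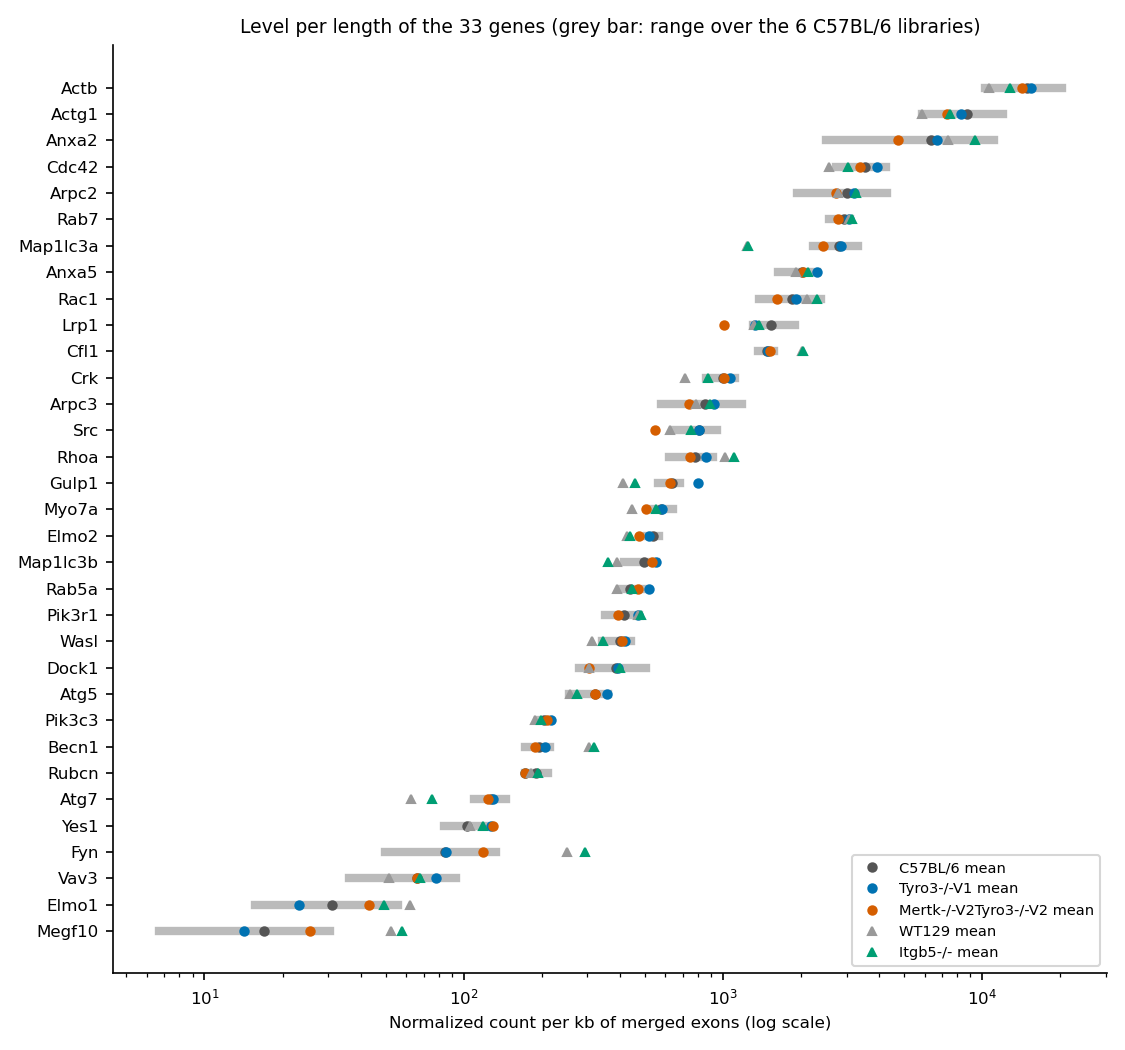
Normalized counts per kb of merged exons (log scale) for the 33 genes, ordered by their C57BL/6 mean; points are group means and grey bars the range over the 6 C57BL/6 libraries. The actins stand at the top and Megf10, Elmo1 and Vav3 at the bottom; the 2 tables (circles and triangles) were normalized separately, so levels across them are set side by side only.

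Across the 33 genes the comparison of Mertk-/-V2Tyro3-/-V2 with C57BL/6 gave 0 genes higher and 1 lower, with 32 that did not pass (limma on log2 normalized counts, Benjamini-Hochberg adjusted p below 0.05). Over all 19711 genes tested, 0.523% passed in either direction and 0.249% passed as lower. Of the 33 estimates, 26 were below 0 and 7 above, with a median log2 fold change of -0.18 against 0.01 over all genes; the members' median was -0.05 without the mark term. It was -0.10 without Mertk-/-V2Tyro3-/-V2 replicate 3, and -0.07 when C57BL/6 replicate 1 was left out too. An unadjusted p below 0.05 was reached by 10 of the 33 genes (30.3%) and by 21.9% of all genes. With DESeq2 on recovered reads 5 members passed, 3 higher (Elmo1, Megf10 and Fyn) and 2 lower (Src and Map1lc3a), where 8.57% of all genes passed. With edgeR 1 member passed, where 0.614% of all genes did.

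In the comparison of Tyro3-/-V1 with C57BL/6, limma called 0 of the 33 genes, against 0.0457% of all genes, and edgeR and DESeq2 called 0 as well, against 0.0457% and 0.649%. Only 2 members (6.06%) had an unadjusted p below 0.05, against 6.71% of all genes, and the median log2 fold change was -0.01, or 0.08 without the mark term. Between Mertk-/-V2Tyro3-/-V2 and Tyro3-/-V1, limma and edgeR called 0 members, where 0.137% and 0.178% of all genes passed. DESeq2 called 1 member (Src) and 3.28% of all genes. An unadjusted p below 0.05 was reached by 3 members (9.09%, against 13.8% of all genes). Src, Becn1, Map1lc3a and Rab5a lay wholly below Tyro3-/-V1, as did 7.22% of all genes, and Megf10 lay wholly above, as did 10.9%. In Itgb5-/- against WT129, limma, edgeR and DESeq2 called 0 members, where 0.0375%, 0.0268% and 2.3% of all 18648 genes passed. An unadjusted p below 0.05 was reached by 2 members (6.06%), against 8.28% of all genes. There 31 of 33 estimates were above 0, with a median log2 fold change of 0.16 against 0.04 over all genes. Without WT129 replicate 2 the members' median was 0.05 and that of all genes 0.02. Estimates were also above 0 for 145 of 198 other genes of these pathways (median 0.10). Among markers, 11 of 12 ocular surface (median 0.53) and 17 of 19 microglia and macrophage ones (0.29) were above 0. So were 10 of 11 endothelial (0.17), 10 of 13 RPE (0.13) and 4 of 9 fibroblast and mural markers (-0.01). Markers of neighbouring neurons lay the other way from the members. All 12 rod markers had estimates below 0 (median -1.53) and an unadjusted p below 0.05, with sums of 39441 to 83675 normalized counts in Itgb5-/- and 130936 to 264538 in WT129. All 16 inner retinal markers were below 0 as well (median -1.25, 7 of 16 at an unadjusted p below 0.05), with sums of 16626 to 21612 and 24223 to 43464. None of these markers passed with limma, and their part in the members' values was not tested. Both mutants of the first table were compared with the same C57BL/6 libraries, so their values are given side by side and not as independent results.

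**Figure D2:**
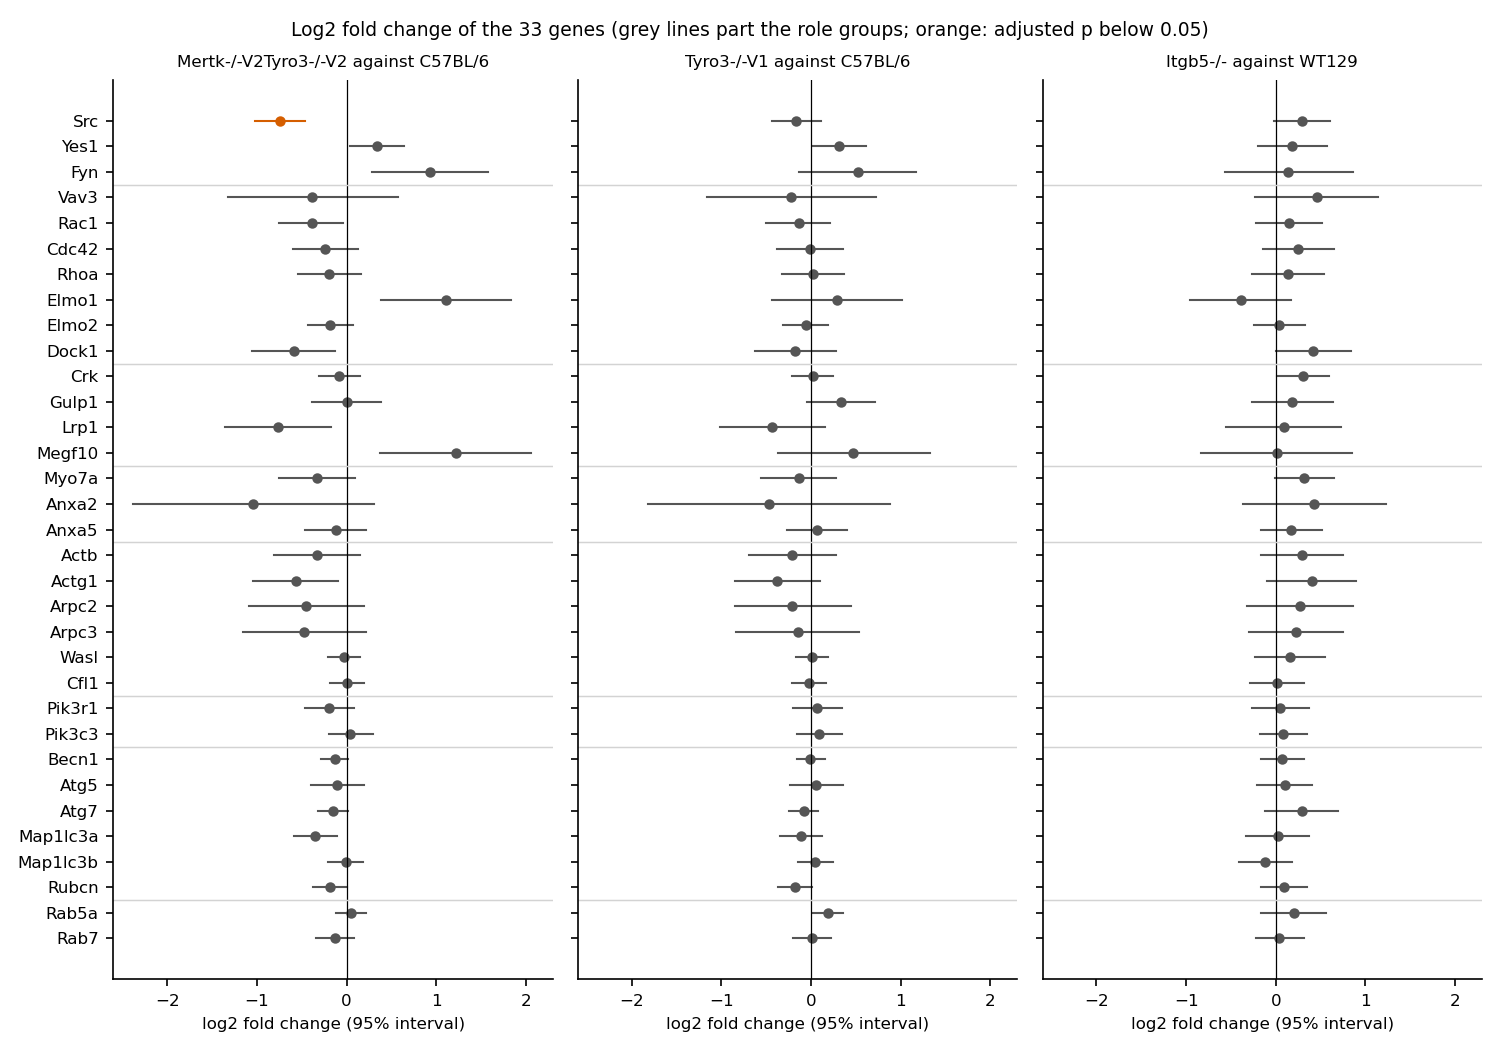
Log2 fold change (point) and 95% interval (line) of the 33 genes in 3 comparisons, grouped by role; orange marks the adjusted p below 0.05. Src at -0.74 in Mertk-/-V2Tyro3-/-V2 against C57BL/6 is the single orange point, and in Itgb5-/- against WT129 31 of 33 points lie right of 0.

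Src fell 1.67-fold in Mertk-/-V2Tyro3-/-V2 RPE while Yes1 and Fyn, the other Src-family kinases listed, had estimates above 0. Src (chromosome 2, 157418444 to 157471862, plus strand, GRCm38) encodes the kinase that acts downstream of engulfment receptors and of integrins. In C57BL/6 its normalized counts were 4132, 4143 and 3643 in replicates 1 to 3 and 3593, 2884 and 2835 in replicates 4 to 6. They were 2591, 2560 and 2010 in Mertk-/-V2Tyro3-/-V2 and 3797, 3297 and 3516 in Tyro3-/-V1. All 3 Mertk-/-V2Tyro3-/-V2 libraries lay below every C57BL/6 and every Tyro3-/-V1 library; 2.36% of all genes lay entirely below C57BL/6 in this way. The log2 fold change against C57BL/6 was -0.74 ± 0.13 (SE; 95% interval -1.02 to -0.46; limma adjusted p = 0.0352), with group means of 2387 ± 327 (SD, n = 3) and 3538 ± 575 (SD, n = 6). Against Tyro3-/-V1 it was -0.57 (95% interval -0.85 to -0.30), which did not pass with limma (adjusted p = 0.135) and passed with DESeq2 (adjusted p = 0.00477). Tyro3-/-V1 against C57BL/6 gave -0.17 (95% interval -0.44 to 0.11; limma adjusted p = 0.911).

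The Src call was narrow. Between the wild-type sets, unmarked against marked C57BL/6, Src was at -0.36 on the log2 scale (limma adjusted p = 0.165, DESeq2 adjusted p = 0.0965). Every unmarked library lay below every marked one, as for 17.9% of all genes. For Mertk-/-V2Tyro3-/-V2 against C57BL/6 without a term for the mark, the log2 fold change was -0.56 (limma adjusted p = 0.159). Without C57BL/6 replicate 1 and Mertk-/-V2Tyro3-/-V2 replicate 3 together it was -0.59 (limma adjusted p = 0.252). With only the marked libraries the limma adjusted p was 0.0666, and with only the compared groups 0.0783, both at -0.74. Leaving out C57BL/6 replicate 1, 2, 3, 5 or 6, or Mertk-/-V2Tyro3-/-V2 replicate 1 or 3, each ended the call as well, with log2 fold changes of -0.81 to -0.62 and limma adjusted p of 0.0539 to 0.178. Among RPE markers, 9 of 13 had a negative log2 fold change in this comparison, 1 of 13 passed as lower, and none was at 0 throughout a group. Their median was -0.69, and 9 of 13 (69.2%) had an unadjusted p below 0.05. Their summed level was 412342 to 656670 normalized counts in Mertk-/-V2Tyro3-/-V2, while C57BL/6 held 580386 to 963487 and Tyro3-/-V1 held 715633 to 1002234, and its part in the Src result was not tested. Of the other lists, estimates were above 0 for 16 of 16 inner retinal (median 1.51), 12 of 12 rod (0.80), 11 of 11 endothelial (0.74), 9 of 9 fibroblast and mural (0.49) and 16 of 19 microglia and macrophage markers (0.49). Only 2 of these, both microglia and macrophage markers, passed as higher. The summed level of that list did not rise with them. It was 8988 to 11545 normalized counts in Mertk-/-V2Tyro3-/-V2, and 11495 to 13749 in marked and 8723 to 10840 in unmarked C57BL/6. Its lowest marker estimate was -1.08. Ocular surface markers were below 0 for 11 of 12 (median -1.37), and 0 passed. The part of these tissues was not tested either. Src also lies 28.6 Mb from Mertk and 37.6 Mb from Tyro3 on chromosome 2.

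Yes1 was measured at 1026, 1017 and 884 normalized counts in Mertk-/-V2Tyro3-/-V2 and at 1005, 926 and 937 in Tyro3-/-V1. The C57BL/6 libraries ran from 633 through a median of 765 to 912. Tyro3-/-V1 lay wholly above C57BL/6, as did 2.59% of all genes, and Mertk-/-V2Tyro3-/-V2 overlapped it. The log2 fold changes against C57BL/6 were 0.31 for Tyro3-/-V1 (95% interval 0.02 to 0.61; limma adjusted p = 0.73) and 0.34 for Mertk-/-V2Tyro3-/-V2 (0.04 to 0.64; adjusted p = 0.191). Within a library the per-length ratio of Src to Yes1 needs no scaling between libraries. It was 3.91 to 4.34 in Mertk-/-V2Tyro3-/-V2, 6.12 to 6.49 in Tyro3-/-V1 and 5.84 or more in C57BL/6, so the first range met neither of the others. In WT129 the ratio was 4.28 to 7.37 and in Itgb5-/- 5.99 to 6.59. The per-length ratio of Src to Fyn was 2.5 to 7.44 in Mertk-/-V2Tyro3-/-V2. That range overlapped C57BL/6 (4.97 to 19.0) and lay below Tyro3-/-V1 (7.62 to 13.3). Both ratios reuse the Src counts given above, so they are not separate evidence of lower Src. How often other gene pairs part as Src and Yes1 did was not computed.

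Fyn, a Src-family kinase prominent in neurons, was at 348, 411 and 801 normalized counts in Mertk-/-V2Tyro3-/-V2 and at 284, 368 and 461 in Tyro3-/-V1. In C57BL/6 it was at 217, 285 and 264 in replicates 1 to 3 and at 400, 579 and 468 in replicates 4 to 6. The unmarked C57BL/6 libraries were thus all above the marked ones, as were 17.3% of all genes. The log2 fold change of Mertk-/-V2Tyro3-/-V2 against C57BL/6 was 0.93 ± 0.29 (SE), which did not pass with limma (adjusted p = 0.136) and passed with DESeq2 (adjusted p = 0.0273). Summed levels of 16 inner retinal neuron markers were 38454 to 64147 normalized counts in Mertk-/-V2Tyro3-/-V2, 27815 to 38386 in marked and 41682 to 58066 in unmarked C57BL/6, and 28265 to 35096 in Tyro3-/-V1. None of the 16 was at 0 throughout a group. The sum of 12 rod markers was 53511 to 156355 in Mertk-/-V2Tyro3-/-V2, 22945 to 72362 in marked and 80310 to 206149 in unmarked C57BL/6. The part of these cells in the Fyn values was not tested.

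**Figure D3:**
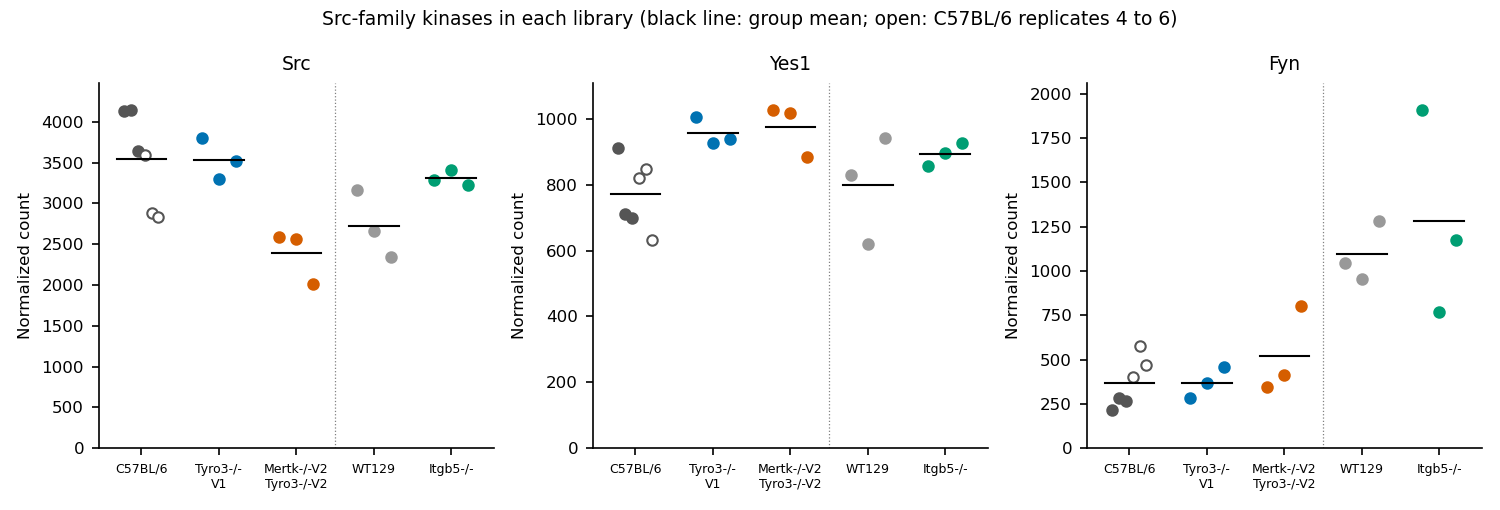
Normalized counts of Src, Yes1 and Fyn in each library, with group means as black lines; open circles are C57BL/6 replicates 4 to 6 and the dotted line parts the separately normalized tables. The 3 Mertk-/-V2Tyro3-/-V2 libraries sit at 2010 to 2591 for Src, below every C57BL/6 library, and the highest of them for Fyn is at 801.

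In Itgb5-/- RPE none of the 3 kinases passed. Src was at 3281, 3407 and 3231 normalized counts in Itgb5-/- and at 3164, 2659 and 2346 in WT129, so the groups did not overlap. The log2 fold change was 0.29 (95% interval -0.02 to 0.60; limma adjusted p = 0.617), and 7.67% of all genes lay wholly above WT129 in the same way. Fyn spread widely in Itgb5-/-, at 1907, 768 and 1176 normalized counts, around the WT129 values of 1047, 953 and 1283.

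Among the small GTPases of the cytoskeleton and their regulators, 0 of 7 genes passed in any of the 4 genotype comparisons with limma. Elmo1, the scaffold that with Dock1 activates Rac1, had the largest estimate of the group in Mertk-/-V2Tyro3-/-V2, at 370, 415 and 837 normalized counts. In Tyro3-/-V1 it was at 247, 242 and 381, and in C57BL/6 at 198, 215 and 296 in replicates 1 to 3 and 394, 700 and 546 in replicates 4 to 6. The groups overlapped, and the unmarked C57BL/6 libraries were all above the marked ones, as for 17.3% of all genes. Its log2 fold change was 1.11 ± 0.33 (SE) against C57BL/6 (limma adjusted p = 0.122, DESeq2 adjusted p = 0.0191) and 0.83 (95% interval 0.10 to 1.56) against Tyro3-/-V1 (limma adjusted p = 0.321). The related Elmo2 was at 3164 ± 394 normalized counts in Mertk-/-V2Tyro3-/-V2 (SD, n = 3) and 3557 ± 136 in C57BL/6 (SD, n = 6), for an estimate of -0.18 on the log2 scale (limma adjusted p = 0.341). Per length Elmo1 stood at 0.0297 to 0.106 of Elmo2 in C57BL/6 and at 0.0611 to 0.144 in Mertk-/-V2Tyro3-/-V2. In each group of the first table the highest Elmo1 count fell in the library with the highest inner retinal marker sum, and the part of those cells was not tested.

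Dock1, the Rac1 exchange factor that works with Elmo proteins, was at 3542, 3026 and 1914 normalized counts in Mertk-/-V2Tyro3-/-V2, within or below the C57BL/6 range of 2598 to 4708 (median 3686). Its log2 fold change was -0.59 (95% interval -1.05 to -0.13; limma adjusted p = 0.164). In Itgb5-/- it was at 3634, 3850 and 3688, above the WT129 values of 3531, 2137 and 2842, as were 7.67% of all genes. The estimate was 0.42 on the log2 scale (limma adjusted p = 0.603). Rac1 itself, the GTPase that drives cup formation, was at 7288 ± 1214 normalized counts in Mertk-/-V2Tyro3-/-V2 (SD, n = 3) and 8272 ± 1746 in C57BL/6 (SD, n = 6). Its log2 fold change, which rests on C57BL/6 replicates 1 to 3, was -0.39 (95% interval -0.75 to -0.04, limma adjusted p = 0.203). Cdc42, which also steers actin, was at -0.24, Rhoa, which promotes contractility, at -0.19, and the exchange factor Vav3 at -0.38 on the log2 scale, and the 95% intervals of these 3 genes included 0. The per-length ratio of Cdc42 to Rac1 was 2.07 to 2.10 in Mertk-/-V2Tyro3-/-V2, wholly above C57BL/6 (1.78 to 2.02), and 1.99 to 2.14 in Tyro3-/-V1. The share of other gene pairs that part in this way was not computed. Over the 12 libraries of the first table the ratio was 1.78 to 2.14 and over the 6 of the second 1.19 to 1.35, where strain and table cannot be told apart.

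The engulfment adaptors and receptors gave 0 calls among 4 genes in each genotype comparison with limma. Lrp1, a large scavenger receptor for calreticulin-bearing targets, had normalized counts of 17113, 21235 and 15145 in Mertk-/-V2Tyro3-/-V2. Every C57BL/6 library was higher, from 23045 through a median of 26080 to 33542, and 2.36% of all genes lay wholly below C57BL/6 in this way. The log2 fold change was -0.76 (95% interval -1.35 to -0.17), which did not pass (limma adjusted p = 0.162). Tyro3-/-V1 spanned both groups, at 13973, 22349 and 34558. Megf10, an engulfment receptor known from astrocytes, was at 124, 153 and 317 in Mertk-/-V2Tyro3-/-V2 and 51.3 to 236 in C57BL/6 (median 112). Its log2 fold change was 1.22 (95% interval 0.37 to 2.06; limma adjusted p = 0.136, DESeq2 adjusted p = 0.0261), and its highest value in each group of the first table except Tyro3-/-V1 fell in the library with the highest inner retinal marker sum.

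Crk, the adaptor between phosphorylated docking proteins and Dock1, was at 3861, 4226 and 4309 normalized counts in Itgb5-/- and at 3827, 3054 and 3205 in WT129. The groups did not overlap, where 7.67% of all genes lay wholly above WT129. The log2 fold change was 0.30 (95% interval 0.01 to 0.59, limma adjusted p = 0.589). In Mertk-/-V2Tyro3-/-V2 it was -0.08 (95% interval -0.31 to 0.15). Gulp1, an adaptor that binds the tails of engulfment receptors, was at 0.00 in Mertk-/-V2Tyro3-/-V2 (95% interval -0.38 to 0.38) and 0.33 in Tyro3-/-V1 (95% interval -0.05 to 0.71; limma adjusted p = 0.805). One Tyro3-/-V1 library, replicate 3, held the highest Gulp1 count of the first table, 3898.

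The motor and annexins gave 0 limma calls among 3 genes. Myo7a, the myosin that moves phagosomes and melanosomes in the apical RPE, was at 4720, 4671 and 4781 normalized counts in Itgb5-/- and 3671, 4536 and 3253 in WT129. The groups did not overlap, where 7.67% of all genes lay wholly above WT129. The log2 fold change was 0.32 (95% interval -0.01 to 0.65, limma adjusted p = 0.606). Its estimate in Mertk-/-V2Tyro3-/-V2 was -0.33 (95% interval -0.75 to 0.09). Anxa2 varied most: it was at 30684, 15104 and 6995 normalized counts in Mertk-/-V2Tyro3-/-V2 and from 9315 to 41428 in C57BL/6 (median 26037). Its estimate there was -1.04 with a 95% interval of -2.38 to 0.31, so no difference could be resolved. The sum of 12 ocular surface epithelium markers ran from 51216 to 272300 normalized counts in Mertk-/-V2Tyro3-/-V2 and from 76981 to 365469 in C57BL/6, none of the markers was at 0 throughout a group, and in both groups its highest and lowest libraries were those of Anxa2. The part of that tissue in the Anxa2 spread was not tested. Anxa5, which binds phosphatidylserine, was at -0.12 (95% interval -0.46 to 0.22).

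**Figure D4:**
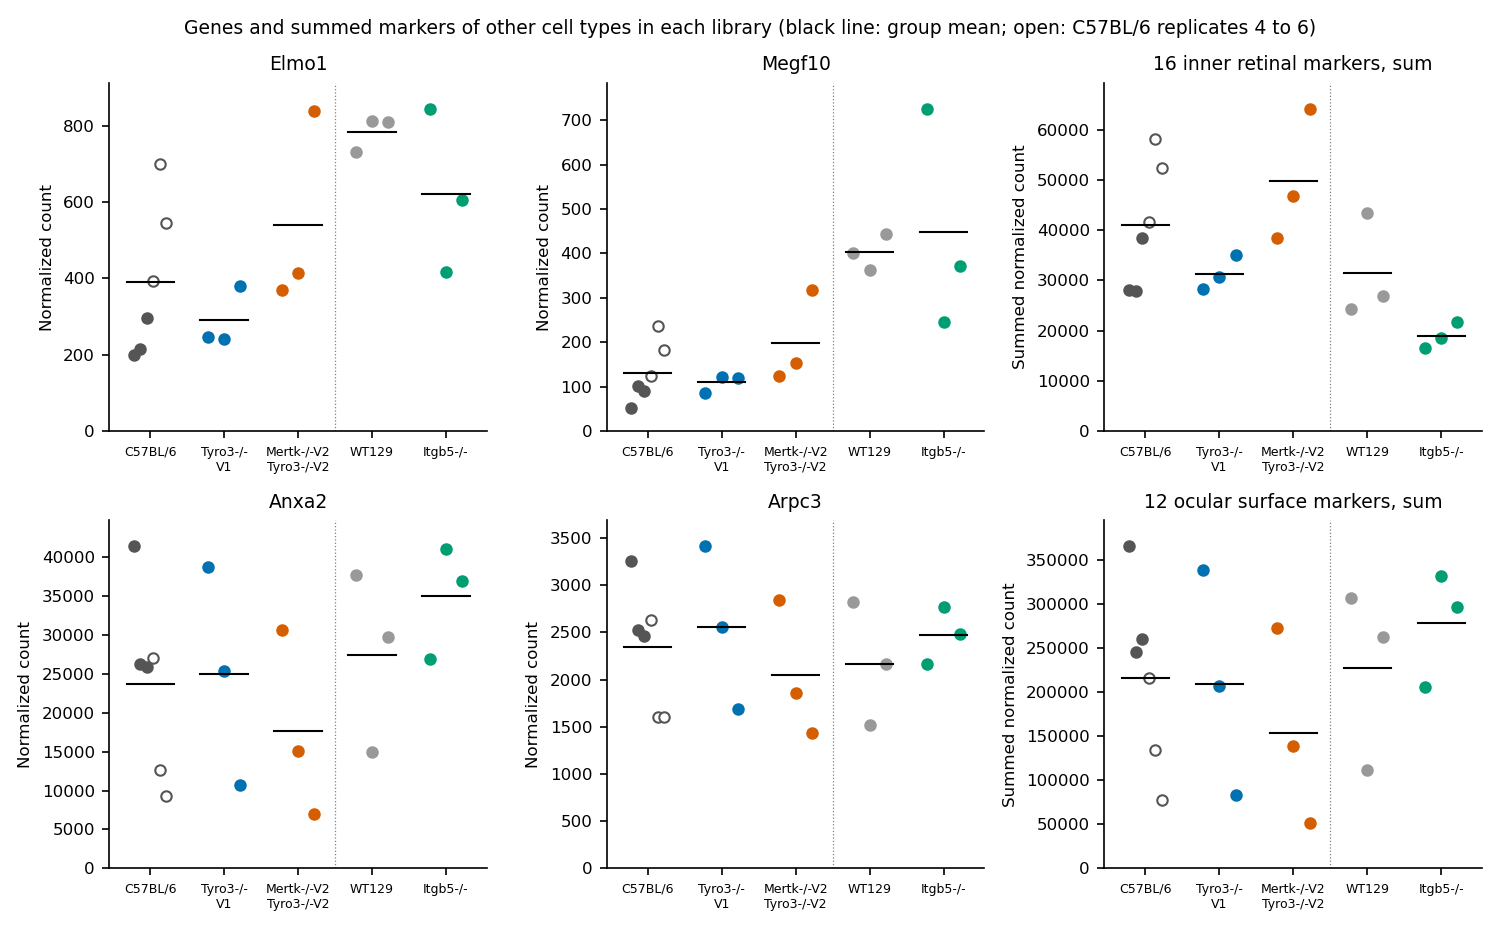
Normalized counts of Elmo1, Megf10, Anxa2 and Arpc3, and summed normalized counts of 16 inner retinal and 12 ocular surface markers, in each library; black lines are group means and open circles C57BL/6 replicates 4 to 6. Mertk-/-V2Tyro3-/-V2 replicate 3 is highest of its group for Elmo1, Megf10 and the inner retinal sum and lowest for Anxa2, Arpc3 and the ocular surface sum.

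The actins and their assembly factors gave 0 limma calls among 6 genes, and 5 of 6 estimates in Mertk-/-V2Tyro3-/-V2 were below 0. Actg1 encodes cytoplasmic gamma-actin and had the lowest estimate, -0.56 (95% interval -1.04 to -0.09; limma adjusted p = 0.184), with 23623, 19651 and 14888 normalized counts against a C57BL/6 range of 15579 to 31963 (median 23874). Actb, cytoplasmic beta-actin, was at -0.33, and the Arp2/3 subunits Arpc2 and Arpc3, which nucleate branched filaments, were at -0.45 and -0.47, with 95% intervals that included 0. Their counts were also lower in unmarked than in marked C57BL/6, by 0.65 for Actg1, 0.55 for Actb, 0.61 for Arpc2 and 0.53 for Arpc3 on the log2 scale. Wasl, the activator of Arp2/3, and Cfl1, which severs filaments, had the estimates nearest to 0 in this group: -0.03 (95% interval -0.21 to 0.15) and 0.01 (-0.18 to 0.20). All 6 estimates were above 0 in Itgb5-/- against WT129, from 0.01 for Cfl1 to 0.40 for Actg1. Per length Actb exceeded Actg1 in all 18 libraries, by a ratio of 1.60 to 2.14. The ratio was 1.84 to 2.03 in Mertk-/-V2Tyro3-/-V2, 1.81 to 1.93 in Tyro3-/-V1 and 1.63 to 1.84 in C57BL/6.

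The phosphoinositide 3-kinases gave 0 limma calls among 2 genes. Pik3r1, the regulatory subunit of the class I enzyme that acts at the cup, was at 3979 ± 645 normalized counts in Mertk-/-V2Tyro3-/-V2 (SD, n = 3) and 4170 ± 430 in C57BL/6 (SD, n = 6), an estimate of -0.19 on the log2 scale (95% interval -0.46 to 0.08). Pik3c3, the class III enzyme that marks early phagosomes, was at 0.04 (95% interval -0.20 to 0.29).

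The LC3 genes gave 0 limma calls among 6. In Mertk-/-V2Tyro3-/-V2 against C57BL/6 DESeq2 called Map1lc3a, and all 6 estimates were below 0, from -0.35 to -0.01. Map1lc3a, one of the LC3 proteins attached to phagosome membranes, was at 2797, 3124 and 2655 normalized counts in Mertk-/-V2Tyro3-/-V2 and at 3340, 3138 and 3637 in Tyro3-/-V1. C57BL/6 ran from 2617 through a median of 3354 to 3931. The Mertk-/-V2Tyro3-/-V2 libraries lay below Tyro3-/-V1, as for 7.22% of all genes, and overlapped C57BL/6. The log2 fold change was -0.35 ± 0.11 (SE) against C57BL/6 (limma adjusted p = 0.128, DESeq2 adjusted p = 0.0342) and -0.24 against Tyro3-/-V1 (limma adjusted p = 0.359). Map1lc3a is on chromosome 2 too, 26.5 Mb from Mertk. Its relative Map1lc3b had an estimate of -0.01 (95% interval -0.21 to 0.18). The per-length ratio of Map1lc3a to Map1lc3b was 4.41 to 4.72 in Mertk-/-V2Tyro3-/-V2, while Tyro3-/-V1 had 4.77 to 5.92 and C57BL/6 5.20 to 6.43. The first range met neither of the others. In the second table the ratio was 2.84 to 3.45 in WT129 and 3.09 to 3.89 in Itgb5-/-. That of Atg5 to Atg7 overlapped, at 2.42 to 2.79 in Mertk-/-V2Tyro3-/-V2 and 2.28 to 2.92 in C57BL/6. How often other gene pairs part in this way was not computed.

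Rubcn, which directs LC3 to phagosomes, lies 0.952 Mb from Itgb5 on chromosome 16. It was at 1608, 1376 and 1364 normalized counts in Itgb5-/- and at 1384, 1348 and 1328 in WT129, groups that overlapped. In Tyro3-/-V1 it was at 1294, 1282 and 1279, and C57BL/6 ran from 1290 through a median of 1398 to 1588. The log2 estimate of Tyro3-/-V1 against C57BL/6 was -0.18 (limma adjusted p = 0.762). In Mertk-/-V2Tyro3-/-V2 it was at 1361, 1318 and 1188, also at -0.18 (limma adjusted p = 0.243). Becn1, a partner of Pik3c3, was at -0.13, Atg5 at -0.11 and Atg7, the enzyme that starts LC3 conjugation, at -0.15 in that comparison, each with a 95% interval that included 0. Atg7 was at 521, 525 and 530 in Itgb5-/- and 491, 480 and 339 in WT129, groups that did not overlap, where 7.67% of all genes lay wholly above WT129. The log2 estimate was 0.29 (limma adjusted p = 0.7).

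**Figure D5:**
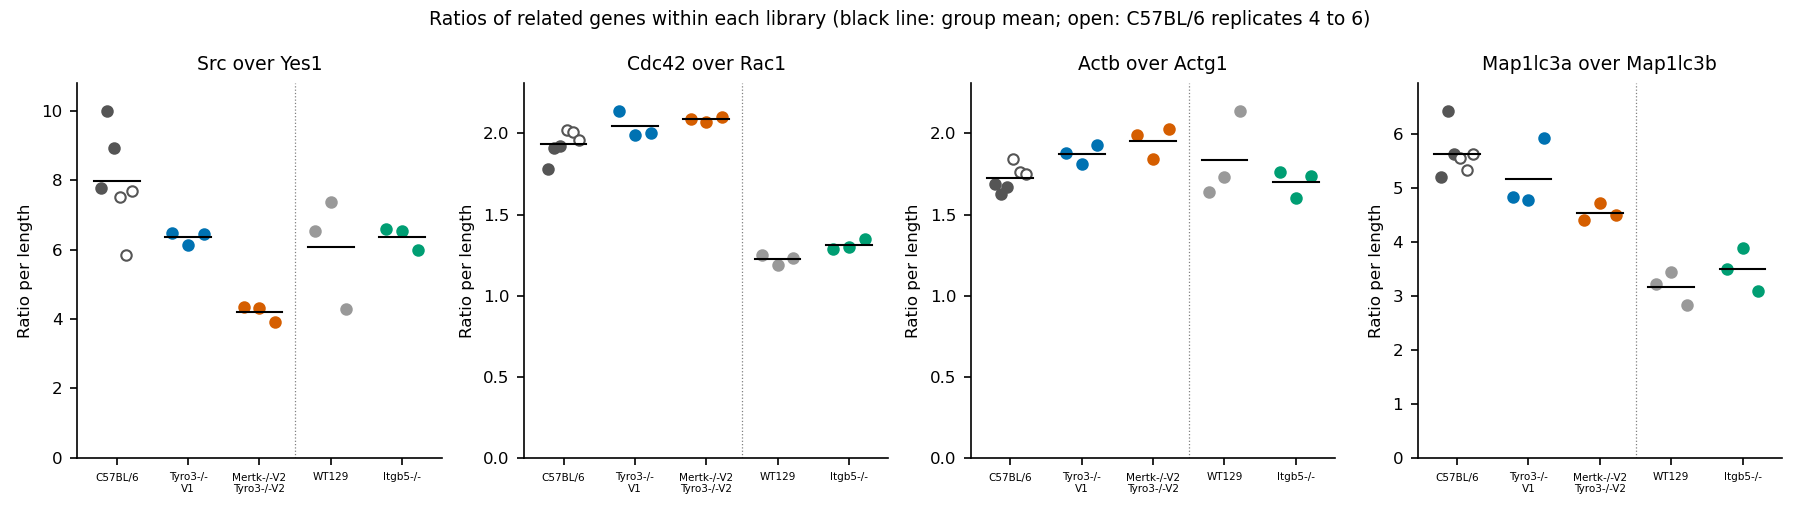
Per-length ratios of related genes within each library, with group means as black lines and C57BL/6 replicates 4 to 6 as open circles. Src over Yes1 is 3.91 to 4.34 and Map1lc3a over Map1lc3b 4.41 to 4.72 in Mertk-/-V2Tyro3-/-V2, both below every C57BL/6 and Tyro3-/-V1 library. Cdc42 over Rac1 (2.07 to 2.10) and Actb over Actg1 (1.84 to 2.03) overlap Tyro3-/-V1. Cdc42 over Rac1 lies above every C57BL/6 library (1.78 to 2.02), and Actb over Actg1 is 1.63 to 1.84 in C57BL/6.

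Of the phagosome Rabs, 0 of 2 passed in any genotype comparison with limma. Rab5a, the early phagosome GTPase, was at 2801, 2738 and 2674 normalized counts in Tyro3-/-V1. C57BL/6 ran from 2122 through a median of 2256 to 2602, so Tyro3-/-V1 lay wholly above it, as did 2.59% of all genes. The log2 fold change was 0.19 (95% interval 0.02 to 0.36; limma adjusted p = 0.703). Mertk-/-V2Tyro3-/-V2 was at 2609, 2536 and 2307, a log2 estimate of 0.05 (95% interval -0.12 to 0.22). Rab7, which takes the phagosome to the lysosome, was at -0.13 in Mertk-/-V2Tyro3-/-V2 (95% interval -0.34 to 0.08), 0.01 in Tyro3-/-V1 and 0.04 in Itgb5-/-.

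Marked and unmarked C57BL/6 libraries were also compared, since their difference bears on every value against C57BL/6. With limma 0 of the 33 genes passed, against 0.167% of all genes, while 11 (33.3%) had an unadjusted p below 0.05, against 24.0% of all genes. edgeR called 0 members, against 0.203% of all genes, and DESeq2 called 2, Elmo1 higher and Atg7 lower, against 4.47%. The smallest p-values belonged to Elmo1 (log2 fold change of unmarked against marked 1.19, limma adjusted p = 0.147), Atg7 (-0.26, adjusted p = 0.153) and Fyn (0.91, adjusted p = 0.163). Atg7 was at 1011, 952 and 926 normalized counts in the marked and 858, 768 and 780 in the unmarked libraries. In all, 14 of the 33 genes lay wholly lower in the unmarked libraries and 3 wholly higher, where 17.9% and 17.3% of all genes did so. The 3 higher genes were Elmo1, Fyn and Megf10.

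A further 201 genes of the same pathways were listed in 8 groups, and 199 of them passed the filter in the first table, 198 in the second table. In Mertk-/-V2Tyro3-/-V2 against C57BL/6, limma called 0 as higher and 1 as lower, which is 0.503% against 0.523% of all genes. edgeR called 1 as well (0.503%), against 0.614% of all genes. DESeq2 called 16 (8.04%), 6 higher and 10 lower, near its 8.57% of all genes. An unadjusted p below 0.05 was found for 46 (23.1%), close to the 21.9% of all genes. The called gene was Wipf2 (chromosome 11, 98863638 to 98905040), a partner of N-WASP in actin assembly and 1 of 38 genes of actin nucleation and remodelling. It was at 1807 ± 141 normalized counts (SD, n = 3), against 2243 ± 302 in C57BL/6 (SD, n = 6) and 2503 ± 114 in its marked libraries (SD, n = 3). With the mark term, which sets the comparison against those marked libraries, Wipf2 was 1.39-fold lower (log2 -0.47 ± 0.08, SE, limma adjusted p = 0.0352). Unmarked against marked C57BL/6 gave -0.34 for Wipf2, which did not pass with limma (adjusted p = 0.134). It passed there with DESeq2 (adjusted p = 0.0113), as did 4.47% of all genes. Without the mark term the Wipf2 estimate of Mertk-/-V2Tyro3-/-V2 against C57BL/6 was -0.30 (limma adjusted p = 0.353). Leaving out any 1 of C57BL/6 replicates 1, 2, 3, 5 and 6, or any 1 Mertk-/-V2Tyro3-/-V2 library, also ended the call, with log2 fold changes of -0.52 to -0.41 and limma adjusted p of 0.0502 to 0.178. Without a filter the limma adjusted p was 0.0568, with only the marked libraries 0.083 and with only the compared groups 0.0767, each at -0.47. Without C57BL/6 replicate 1 and Mertk-/-V2Tyro3-/-V2 replicate 3 the estimate was -0.39 (limma adjusted p = 0.264).

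In the other 7 groups 0 genes passed in that comparison with limma. The smallest p belonged to Pxn among tyrosine kinase signalling genes (paxillin, a focal adhesion adaptor; log2 fold change -0.59, limma adjusted p = 0.0822), and to Rock2, a kinase that promotes contractility, among GTPases and effectors (0.36, adjusted p = 0.0897). Abca7, a transporter linked to engulfment, led its group at -0.38 (limma adjusted p = 0.114), and Myrip, which ties Myo7a to melanosome Rab27a, led the motors and annexins at -0.60 (adjusted p = 0.131). Rab20, a phagosome Rab, led the genes of phagosome maturation and fusion at -0.89 (limma adjusted p = 0.102).

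In Tyro3-/-V1 against C57BL/6, limma and edgeR called 0 of the 199 genes, where each called 0.0457% of all genes. DESeq2 called 1 (0.503%), against 0.649% of all genes. An unadjusted p below 0.05 was found for 14 (7.04%), close to the 6.71% of all genes. The smallest p was that of Cybb, the catalytic NADPH oxidase subunit, at 171 ± 22.2 normalized counts (SD, n = 3) against 109 ± 8.80 (SD, n = 6), a log2 estimate of 0.71 (limma adjusted p = 0.352). The first of each other group were Wipf1 (0.63) and Myo1f (0.65), both prominent in blood cells, Stab1 (0.43), Vamp7 (0.34), Mtm1 (0.32), Bcar1 (-0.23) and Rhog (-0.35). Microglia and macrophage markers, 19 with none at 0 throughout a group, summed to 11311 to 14297 normalized counts in Tyro3-/-V1 and 8723 to 13749 in C57BL/6, with 3 of 19 at an unadjusted p below 0.05. All 11 endothelial markers had estimates above 0 (median 0.88, 9 of 11 at an unadjusted p below 0.05), with sums of 5123 to 10970 and 3659 to 9907. All 9 fibroblast and mural cell markers were above 0 too (median 0.59), 1 of them passed as higher, and their sums were 51028 to 58774 in Tyro3-/-V1 and 28270 to 40153 in C57BL/6, ranges that did not overlap. The part of these cells was not tested. Between Mertk-/-V2Tyro3-/-V2 and Tyro3-/-V1, limma and edgeR called 0 of these pathway genes, against 0.137% and 0.178% of all genes. DESeq2 called 2 (1.01%), against 3.28%. An unadjusted p below 0.05 was found for 21 (10.6%), against 13.8% of all genes. The first of each group were Rock2 (0.38), Wipf2 (-0.32), Pxn (-0.45), Myrip (-0.55), Pik3r3 (0.28), Rabep1 (0.23), Atg12 (-0.22) and Adgrb1 (1.40).

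In Itgb5-/- against WT129, limma, edgeR and DESeq2 called 0 of 198 pathway genes, against 0.0375%, 0.0268% and 2.3% of all genes. An unadjusted p below 0.05 was found for 11 (5.56%), against 8.28% of all genes. Fgr, a Src-family kinase of myeloid cells, was at 35.7 ± 3.29 normalized counts against 14.1 ± 3.82 (SD, n = 3 each), a log2 estimate of 1.31 (limma adjusted p = 0.403). Ncf4, an NADPH oxidase subunit, was at 78.2 ± 21.6 against 28.1 ± 17.7, and Inpp5d, a lipid phosphatase of blood cells, at 171 ± 27.6 against 98.9 ± 17.4, with limma adjusted p above the threshold for both. Capza1, which caps actin filaments, stood at 0.77 on the log2 scale (limma adjusted p = 0.426), and the first of the remaining groups were Myo1e (0.38), Crkl (0.34), Plekhm1 (0.29) and Pak2 (0.25). The microglia and macrophage marker sum was 12726 to 15913 normalized counts in Itgb5-/- and 10277 to 11777 in WT129, with none of the 19 markers at 0 throughout a group. Their part in these values was not tested.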

How the data were processed

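The authors deposited 2 tables of gene-level normalized counts, a signal that is each library's read count divided by one size factor; STAR and DESeq2, without versions, and GRCm38 (mm10) are named in the submitters' processing notes. Strandedness and annotation are not given in the sources used here. Every value above 0 was a whole multiple of one step per library (100% within 0.001 of a read), so reads were recovered with size factors of 0.541 to 1.197. The first table had 240 lines without a gene name, which were left out. In the second, 3061 of 3096 such lines were named from their identifier and kept, and 35 were left out. The lines left out held at most 0.0203% of a library. The main test was limma 3.58.1 (R 4.3.3) on log2(normalized count + 1) with trend and robust shrinkage, for genes at 10 or more in at least 3 libraries. The first table's model had group and the mark 23 (8 residual degrees of freedom), the second's group (4). p-values were adjusted over all genes tested by Benjamini-Hochberg. Count tests on recovered reads (edgeR 4.0.16, DESeq2 1.42.0) were alternatives, and edgeR called 121, 9, 35 and 5 genes in the order Mertk-/-V2Tyro3-/-V2 and Tyro3-/-V1 against C57BL/6, Mertk-/-V2Tyro3-/-V2 against Tyro3-/-V1, and Itgb5-/- against WT129. Lengths are merged exons of GENCODE M21. The fits were checked on simulated data without an effect of the mark or of tissue mix, so that check cannot speak to either. Members and gene lists were chosen with earlier results of these data known. Library values were given for members that passed or had one of the 3 smallest p in a comparison, and for Lrp1, Megf10, Anxa2 and Actg1. These last 4 were added after their values were seen. Some groups were given only as a range with its median, and not every group was given for each of these genes. From each pathway list the genes that passed, or otherwise the one of smallest p, were named, except that for some lists in one comparison it is not reported here.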

Additional observations from a re-analysis of the deposited data

How the results depend on the processing

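In Mertk-/-V2Tyro3-/-V2 against C57BL/6, 1 member passed with limma, as with pseudocounts of 0.5 and 10, no filter, a filter of 50, TMM rescaling and edgeR. It was 0 without the mark term, with only the marked libraries, with only the compared groups and without C57BL/6 replicate 1 and Mertk-/-V2Tyro3-/-V2 replicate 3, which each have fewer genes called in all (53, 11, 29 and 13 against 103), and the cause was not tested. DESeq2 called 5 members and 1689 genes, and leaving out each replicate gave 0 to 1 members and 0 to 142 genes. In Tyro3-/-V1 against C57BL/6 the 9 genes called became 5 without those 2 libraries and 128 with DESeq2, and 3 to 9 when each replicate was left out. In Mertk-/-V2Tyro3-/-V2 against Tyro3-/-V1 the 27 genes became 41 with no filter, 5 with only the marked libraries, 2 with only the compared groups, 11 without those 2 libraries and 646 with DESeq2, which called 1 member, and 2 to 35 when each replicate was left out. In Itgb5-/- against WT129 the 7 genes became 19 with no filter and 429 with DESeq2, and 0 to 10 when each replicate was left out. For unmarked against marked C57BL/6, whose alternatives were chosen after seeing the data, the 33 genes became 57 with a pseudocount of 10 and 881 with DESeq2, which called 2 members, and 4 to 91 when each C57BL/6 replicate was left out. In the last 4 comparisons 0 members passed whichever replicate was left out.

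Same-numbered libraries did not all deviate together from their group means (correlations of -0.215 to 0.585 in the first table and -0.116 to 0.0336 in the second), so the numbers were not taken as pairs. In the first table the correlations were 0.325 to 0.585 between replicates 1, 0.293 to 0.54 between replicates 3 and -0.215 to 0.0459 between replicates 2. What replicates 1 and 3 share across groups was not tested. With the replicate number as a block, Mertk-/-V2Tyro3-/-V2 against C57BL/6 gave 716 genes and 2 members (Src lower, and Elmo1 higher with a limma adjusted p of 0.0313) and 5 further pathway genes (2 higher, 3 lower), and Itgb5-/- against WT129 gave 0 genes; the block gave 6 genes for Tyro3-/-V1 against C57BL/6 and 36 for Mertk-/-V2Tyro3-/-V2 against Tyro3-/-V1. Groups of 3 libraries limit what could be resolved, and p-values measure only the spread between these libraries.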
